A study of Mus musculus with 4 samples.

Results

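The genes described here are 9 monocyte and interstitial macrophage genes, *C1qa*, *C1qb*, *C1qc*, *Ly6c2*, *Folr2*, *Lyve1*, *Mertk*, *Csf1r* and *Adgre1*. They were chosen by symbol, and each had 1 entry among the 49315 genes of the deposited count table. RNA-Seq was performed on lung ILC2s of mice that received PBS or bleomycin, a DNA-damaging drug that causes lung injury and fibrosis, in WT and *Hps1*-/- animals. *Hps1* encodes a subunit of BLOC-3, a complex needed for lysosome-related organelles and defective in some types of Hermansky-Pudlak syndrome. The groups, with 1 library each, were WT mice given PBS (PBS-WT) or bleomycin (BLEO-WT) and *Hps1*-/- mice given PBS (PBS-HPS1) or bleomycin (BLEO-HPS1).

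WT mice were C57BL/6, and the *Hps1*-/- mice were congenic on that background. Both an intratracheal and an intraperitoneal bleomycin course are described in the study's methods, neither of them is tied to these libraries, and an age is stated for the intraperitoneal course alone. How many mice contributed to each library is not given in the sources used here. ILCs were enriched by negative selection and sorted as Lineage- cells positive for Thy1.2, ICOS and T1/ST2, at a high stated purity. The Lineage cocktail covered CD3, CD11b, B220, Ly76, Ly6G and Ly6C, and Ly6C and CD11b are proteins of classical monocytes. The sorted cells were cultured with IL-2 and serum before RNA was extracted and amplified with a SMARTER mRNA kit. Cells sequenced numbered 22405 with PBS and 84166 with bleomycin for WT, and 38873 with PBS and 128647 with bleomycin for *Hps1*-/- mice, so that cell number and group cannot be told apart.

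The PBS-WT library held 72513619 reads and PBS-HPS1 77703133, while BLEO-WT held 87638154 and BLEO-HPS1 77428740. Levels are given as CPM, read counts scaled to library size with TMM factors, and 3 reads corresponded to between 0.0303 and 0.0475 CPM. Ratios between libraries are log2 ratios of CPM with a prior count of 2, and a gene was called changed when the ratio was at least 1 in size, a 2-fold difference. Intervals are exact Clopper-Pearson intervals at 95%, and they cover counting error only. They treat reads as independent, while amplified reads are not independent molecules, so that they can be too narrow even for this error. With 1 library per group no difference had a replicate check, and the comparisons are of libraries. The 4 comparisons share libraries with each other.

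The targeted gene *Hps1* was at 38.3 CPM in PBS-WT against 16.6 in PBS-HPS1, and 48.4 in BLEO-WT against 21.3 in BLEO-HPS1, lower in both *Hps1*-/- libraries. *Thy1*, the ILC2 marker gene with the most reads among 9, was at 306, 206, 224 and 551 CPM in the same order. The ILC2 genes summed to 884, 784, 760 and 914 CPM, and *Thy1* does not stand for them all. With bleomycin in *Hps1*-/- mice *Thy1* and *Klrg1* were called higher while *Rora*, *Icos* and *Il7r* were called lower. Of all genes that reached a CPM of 1 in any library, 26.2% were called higher and 19.6% lower there. The lower calls of the ILC2 genes ended after a correction for GC content and length, while with total counts 1 ILC2 gene was called higher and 5 lower. The 9 monocyte and interstitial macrophage genes summed to 1582, 1044, 5690 and 7189 CPM. They took 0.170% of all reads in PBS-WT (95% interval 0.169 to 0.171), 0.133% in PBS-HPS1 (0.132 to 0.134), 0.509% in BLEO-WT (0.508 to 0.511) and 0.587% in BLEO-HPS1 (0.585 to 0.588). Per kilobase of the longest transcript, *Csf1r* lay below *Thy1* in the PBS libraries, at 137 against 177 CPM in PBS-WT and 80.7 against 119 in PBS-HPS1. It lay above *Thy1* in the bleomycin libraries, at 286 against 129 in BLEO-WT and 341 against 317 in BLEO-HPS1. The libraries therefore held transcripts of ILC2 marker genes and of macrophage genes. In such bulk RNA, more cells of a type and more RNA per cell cannot be told apart.

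Monocytes leave the blood and give rise to macrophages in injured tissue, where they meet resident interstitial macrophages that lie along vessels and airways. Growth and survival of these cells depend on the receptor CSF1R, and their clearance functions use complement, phosphatidylserine-binding receptors and scavenger receptors. In the fibrotic lung, monocyte-derived macrophages are known for gathering in scarred regions.

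**Figure D1:**
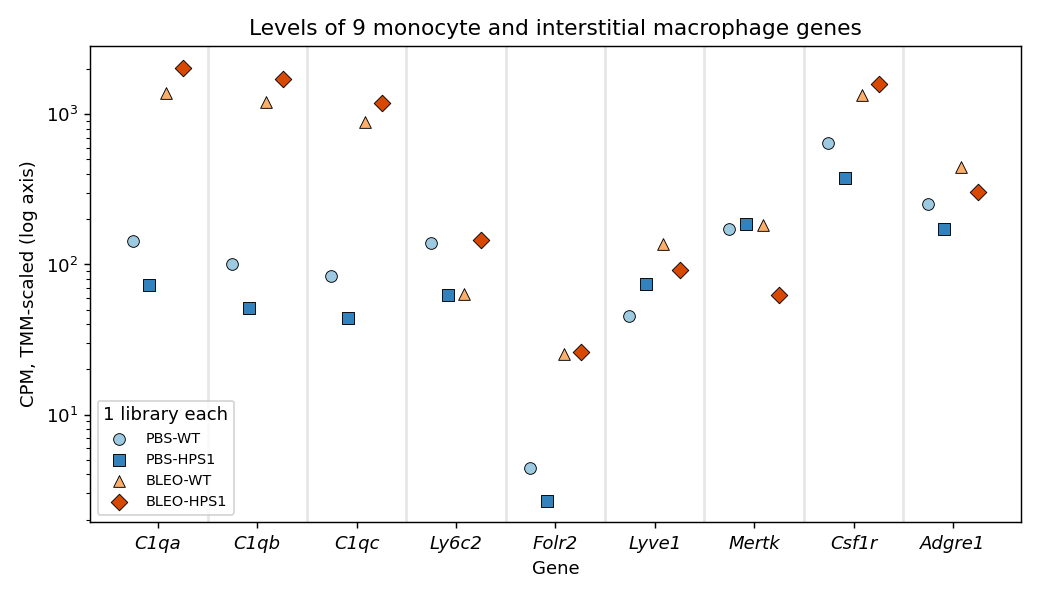
Level of each of the 9 genes in each library, in TMM-scaled CPM on a log axis, with 1 point per library and gene. The C1q genes lie between 44.1 and 143 CPM in the PBS libraries and between 885 and 2047 CPM in the bleomycin libraries, while *Mertk* is lowest in BLEO-HPS1 at 62.8 CPM.

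Across the 14840 tested genes, those that reached a CPM of 1 in any library, calls were unevenly spread over the comparisons. For PBS-HPS1 versus PBS-WT, 0 of the 9 genes were called higher, beside 2.16% of all tested genes, and 1 was called lower, *Ly6c2*, beside 3.11%. For BLEO-WT versus PBS-WT, 6 were called higher, beside 5.28% of all tested genes. These were *C1qa*, *C1qb*, *C1qc*, *Folr2*, *Lyve1* and *Csf1r*, and 1 gene, *Ly6c2*, was called lower, beside 8.22%. For BLEO-HPS1 versus PBS-HPS1, 6 were called higher, beside a much larger background of 26.2%. These were *C1qa*, *C1qb*, *C1qc*, *Ly6c2*, *Folr2* and *Csf1r*, and 1 gene, *Mertk*, was called lower, beside 19.6%. For BLEO-HPS1 versus BLEO-WT, 1 gene was called higher, *Ly6c2*, beside 6.72%, and 1 was called lower, *Mertk*, beside 10.3%. The calls of the other gene lists below have these same background shares.

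The median log2 ratio of the 9 genes was -0.76 for PBS-HPS1 versus PBS-WT, beside -0.19 over all tested genes. It was 1.60 for BLEO-WT versus PBS-WT, beside 0.09, and 2.08 for BLEO-HPS1 versus PBS-HPS1, beside 0.25. For BLEO-HPS1 versus BLEO-WT the median was 0.25, beside -0.04, and it changed sign to -0.18 after a correction of the ratios for GC content and transcript length. Without TMM factors, that is with total counts alone, the median over all tested genes was 0.06, -0.18, -0.43 and -0.18 in the order of the comparisons above. The background split moved with it. With total counts 4.38% of genes were called higher and 2.02% lower for PBS-HPS1 versus PBS-WT, 3.17% and 13.4% for BLEO-WT versus PBS-WT, 9.06% and 34.5% for BLEO-HPS1 versus PBS-HPS1, and 4.92% and 14.8% for BLEO-HPS1 versus BLEO-WT. After the GC and length correction the higher and lower shares were 2.11% and 2.95%, 5.66% and 5.45%, 18.4% and 8.34%, and 5.27% and 4.33% in the same order. Transcripts of the 9 genes ran from 1040 bases for *C1qa* to 4701 for *Csf1r* and from 45.8% GC for *Lyve1* to 59.5% for *C1qa*, so that this correction acted unequally on them.

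**Figure D2:**
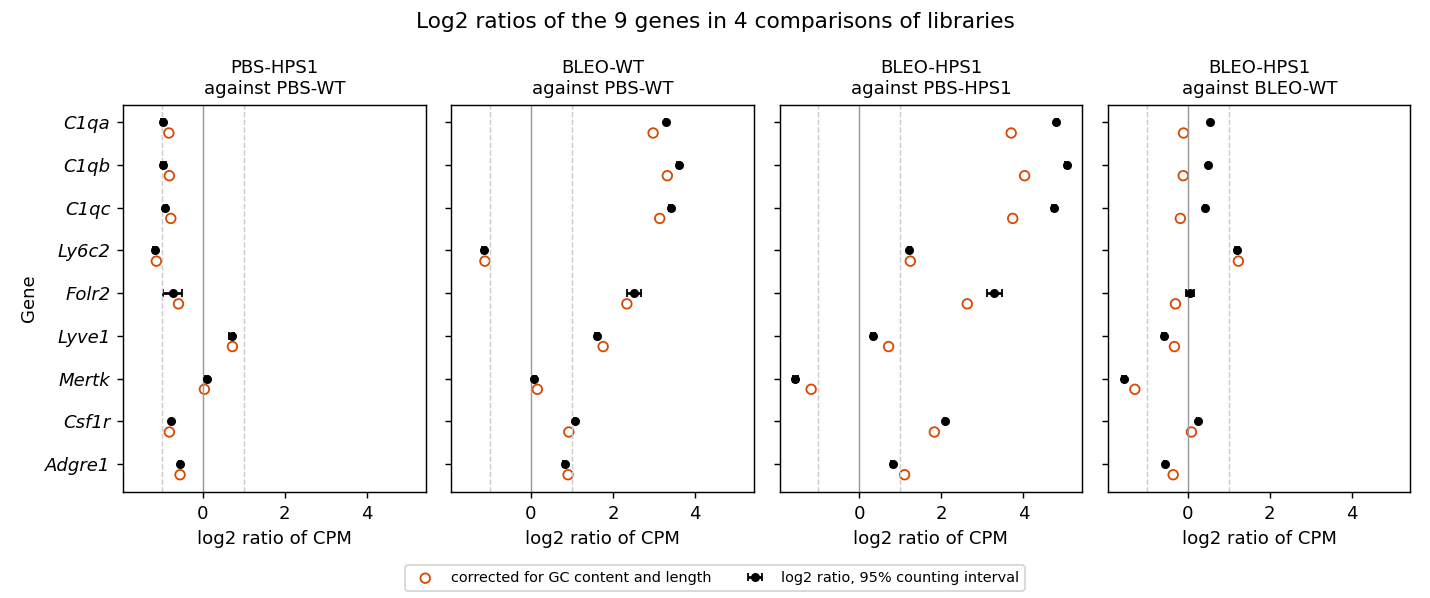
Log2 ratio of each of the 9 genes in the 4 comparisons of libraries, with filled points for the TMM-scaled ratio and its 95% counting interval, and open points for the ratio after correction for GC content and length. Dashed lines mark a 2-fold difference. The C1q genes reach 5.06 for BLEO-HPS1 versus PBS-HPS1, and for BLEO-HPS1 versus BLEO-WT they change from between 0.43 and 0.56 to between -0.18 and -0.10 after the correction.

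*C1qa*, *C1qb* and *C1qc* encode the A, B and C chains of C1q, the recognition subunit that starts the classical complement pathway by binding antibody complexes and dying cells. Macrophages are the main source of C1q in many tissues. The *C1qa* level was 143 CPM in PBS-WT against 73.2 in PBS-HPS1, and 1391 in BLEO-WT against 2047 in BLEO-HPS1. For *C1qb* the levels were 100.2, 51.7, 1214 and 1720.0 CPM in the same order. For *C1qc* they were 83.4, 44.1, 885 and 1189 CPM. All 3 chains were lowest in PBS-HPS1 and far higher in both bleomycin libraries.

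Between BLEO-WT and PBS-WT the log2 ratio was 3.28 for *C1qa* (95% interval 3.26 to 3.31), 3.60 for *C1qb* (3.57 to 3.63) and 3.41 for *C1qc* (3.37 to 3.44). These are increases of 9.75-fold, 12.1-fold and 10.6-fold. In *Hps1*-/- mice, bleomycin against PBS gave 4.80 for *C1qa* (4.77 to 4.84), 5.06 for *C1qb* (5.02 to 5.10) and 4.75 for *C1qc* (4.71 to 4.80). The fold increases were 27.9, 33.3 and 26.9. After the GC and length correction these ratios were 3.70, 4.03 and 3.74. The C1q genes therefore had the largest bleomycin ratios among the 9 genes in both genotypes, under each scaling and after the correction.

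At baseline the C1q genes were lower in PBS-HPS1 than in PBS-WT, by less than 2-fold. Here the log2 ratio was -0.96 for *C1qa* (-1.01 to -0.92), -0.96 for *C1qb* (-1.01 to -0.90) and -0.92 for *C1qc* (-0.97 to -0.86). After bleomycin the ratio of *Hps1*-/- to WT was 0.56 for *C1qa* (0.55 to 0.57), 0.50 for *C1qb* (0.49 to 0.52) and 0.43 for *C1qc* (0.41 to 0.44). The direction of this difference turned with the GC and length correction, to -0.10, -0.11 and -0.18. Bleomycin ratios of *Hps1*-/- mice exceeded those of WT mice by 1.52 for *C1qa*, 1.46 for *C1qb* and 1.35 for *C1qc*, and by 0.73, 0.71 and 0.60 after the correction. This difference between genotypes was not tested.

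The shares of the 3 chains within the C1q reads varied little. *C1qa* took 43.7% of them in PBS-WT (95% interval 43.1 to 44.3), 43.3% in PBS-HPS1 (42.6 to 44.1), 39.9% in BLEO-WT (39.7 to 40.1) and 41.3% in BLEO-HPS1 (41.1 to 41.5). *C1qb* took 30.7% (30.1 to 31.3), 30.6% (29.9 to 31.3), 34.8% (34.6 to 35.0) and 34.7% (34.5 to 34.9), and was thus larger in share in both bleomycin libraries. The share of *C1qc* was 25.6% (25.0 to 26.1), 26.1% (25.4 to 26.8), 25.4% (25.2 to 25.5) and 24.0% (23.8 to 24.1). Within the reads of all 9 genes, the C1q chains together rose from 20.6% in PBS-WT (20.4 to 20.9) to 61.3% in BLEO-WT (61.2 to 61.5). In *Hps1*-/- mice they went from 16.2% with PBS (16.0 to 16.4) to 68.9% with bleomycin (68.8 to 69.1). For each *Csf1r* read there were 0.508 C1q reads in PBS-WT against 0.446 in PBS-HPS1, and 2.59 in BLEO-WT against 3.09 in BLEO-HPS1, a ratio free of library scaling but not of GC content and length. After that correction, BLEO-HPS1 versus BLEO-WT gave -0.10 to -0.18 for the C1q genes and 0.09 for *Csf1r*.

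The 3 C1q genes are neighbours on the minus strand of chromosome 4 (GRCm38). *C1qb* (ENSMUSG00000036905) lies at chr4:136880129-136886187, *C1qc* (ENSMUSG00000036896) at chr4:136889804-136893065 and *C1qa* (ENSMUSG00000036887) at chr4:136895917-136898803. No other annotated gene overlaps them, and 0% of their 50-base words were found in transcripts of other genes. RefSeq promoter windows on GRCm38.p6 were held for 5 of the 9 genes, *C1qb*, *C1qc*, *Mertk*, *Folr2* and *Ly6c2*, with 7 windows in all. The *C1qb* and *C1qc* windows are shown because these genes moved together, 5′ to 3′ on the minus strand. For *C1qb* they are the 250 bases before the RefSeq start, chr4:136886201-136886450, and for *C1qc* the 99 bases of its window that lie outside the GENCODE gene, chr4:136893066-136893164. Capitals mark the letters GAGGAA or their reverse complement, the core bound by the myeloid factor PU.1, which *Spi1* encodes.
C1qb: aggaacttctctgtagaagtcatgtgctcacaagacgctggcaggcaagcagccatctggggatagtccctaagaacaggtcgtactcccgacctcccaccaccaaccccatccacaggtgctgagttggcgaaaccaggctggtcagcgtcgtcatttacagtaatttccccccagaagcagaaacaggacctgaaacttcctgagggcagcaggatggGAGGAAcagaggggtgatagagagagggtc
C1qc: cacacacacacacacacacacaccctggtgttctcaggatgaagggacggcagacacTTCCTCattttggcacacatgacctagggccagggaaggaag
Both windows held GAGGAA on 1 of the strands. Of the 32851 RefSeq promoters, 23.3% held it in a window of 250 bases and 9.91% in the 99 bases that match the *C1qc* window. Among the other windows of these genes it was found in both *Ly6c2* windows, which overlap and share a match, and not in those of *Mertk* or *Folr2*. A match describes letters and is not a site of binding. *Spi1*, named for this motif after its values were seen, was at 353 CPM in PBS-WT against 228 in PBS-HPS1, and 372 in BLEO-WT against 466 in BLEO-HPS1.

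C1q works with the proteases C1r and C1s, and *C1ra* and *C1s1* encode them. *C1ra* was at 14.0 CPM in PBS-WT against 15.7 in PBS-HPS1, and 29.9 in BLEO-WT against 59.9 in BLEO-HPS1. *C1s1* was at 7.15, 12.9, 15.6 and 61.4 CPM. Unlike the C1q chains, both were higher in PBS-HPS1 than in PBS-WT under each scaling, with log2 ratios of 0.16 and 0.85. In BLEO-HPS1 *C1ra* was 2.01-fold above its BLEO-WT level, just past the 2-fold line. *C1s1* had a log2 ratio of 1.97 there (1.88 to 2.07), and both ratios were larger than for the C1q chains. Of the 12 tested genes of the C1 complex and C1q partner list, 4 were called higher and 0 lower for BLEO-WT versus PBS-WT, and 8 and 0 for BLEO-HPS1 versus PBS-HPS1. Over all tested genes the shares were 5.28% and 8.22%, and 26.2% and 19.6%. For BLEO-HPS1 versus BLEO-WT 5 were called higher and 0 lower, with a median of 0.68, and the extremes were *Serping1*, the C1 inhibitor gene, at 2.28 and *Cd93* at -0.68. The 5 became 4 with total counts and 4 after the GC and length correction, and the 8 became 6 and 7. For PBS-HPS1 versus PBS-WT 0 were called, or 1 higher with total counts, where the 4 for BLEO-WT versus PBS-WT also became 1. The gene of the list with the most reads was the scavenger receptor gene *Lrp1*, at 1499, 1288, 2764 and 1752 CPM, and the list summed to 2986, 2539, 4696 and 4838 CPM.

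*Csf1r* encodes the receptor for CSF1 and IL-34, on which monocytes and macrophages depend. Its gene (ENSMUSG00000024621) lies on the plus strand of chromosome 18 from 61100598 to 61132149. The level was 642 CPM in PBS-WT against 379 in PBS-HPS1, and 1347 in BLEO-WT against 1603 in BLEO-HPS1. Both bleomycin libraries were above both PBS libraries. Bleomycin to PBS log2 ratios were 1.07 in WT (1.05 to 1.08) and 2.08 in *Hps1*-/- mice (2.06 to 2.10), a difference of 1.01, or 0.63 with total counts, that was not tested. The WT ratio was just past the 2-fold line and fell below it with total counts, at 0.80, and after the GC and length correction, at 0.92. PBS-HPS1 versus PBS-WT gave -0.76 (-0.78 to -0.74), and BLEO-HPS1 versus BLEO-WT gave 0.25 (0.24 to 0.26), or 0.12 with total counts and 0.09 after the correction. *Csf1r* overlaps the antisense gene *Hmgxb3*, with 17.7% of its 50-base words shared. Whether the counting used strand is not given in the sources used here, so that reads of the overlap cannot be told apart. *Hmgxb3* itself was counted at 27.7 to 47.4 CPM, and the part of overlap reads in the *Csf1r* level was not tested.

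*Csf1* and *Il34* encode the ligands of the receptor. *Csf1* was at 50.3 CPM in PBS-WT against 42.8 in PBS-HPS1, and 26.8 in BLEO-WT against 36.9 in BLEO-HPS1, with a log2 ratio of -0.91 for BLEO-WT versus PBS-WT (-0.98 to -0.83). *Il34* had between 72 and 114 reads in each library, which is 0.949, 0.848, 0.918 and 1.80 CPM. The *Csf1* level was thus lower in both bleomycin libraries than in both PBS libraries, opposite to *Csf1r*. In the list of CSF1R ligands and myeloid regulators, with 15 tested genes, 0 were called for PBS-HPS1 versus PBS-WT and 1 was called higher and 0 lower for BLEO-WT versus PBS-WT. The 0 lower became 1 with total counts and 1 after the GC and length correction. For BLEO-HPS1 versus PBS-HPS1 5 were called higher and 3 lower, beside 26.2% and 19.6% of all tested genes, but 0 and 3 with total counts and 0 and 0 after the GC and length correction. Between the bleomycin libraries 0 were higher and 3 lower, or 2 lower after the correction, with a median of -0.31. Its extremes in that comparison were *Il34* at 0.96 and the transcription factor gene *Zeb2* at -1.51. *Il34*, also among the 5 called higher, passed the filter through BLEO-HPS1 alone, where it was high. The list summed to 3873, 3270, 4897 and 4301 CPM and was led in mean CPM by *Cebpb*, at 709, 620, 883 and 695 CPM. In BLEO-HPS1 *Tyrobp* was higher, at 749 CPM.

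*Adgre1* encodes F4/80, the adhesion GPCR used to mark mouse macrophages, and its gene (ENSMUSG00000004730) lies on the plus strand of chromosome 17 from 57358691 to 57483527. The level was 252 CPM in PBS-WT against 172 in PBS-HPS1, and 444 in BLEO-WT against 303 in BLEO-HPS1. Bleomycin against PBS gave nearly equal log2 ratios in both genotypes, 0.82 in WT (0.79 to 0.84) and 0.81 in *Hps1*-/- mice (0.78 to 0.84). The ratio of *Hps1*-/- to WT was also alike with PBS, at -0.55 (-0.58 to -0.52), and with bleomycin, at -0.55 (-0.58 to -0.53). The difference between genotypes in the bleomycin ratio was -0.01, with a size and sign that depended on the processing. It was 0.02 with DESeq2 size factors and 0.20 after the GC and length correction. With total counts it was -0.38, from bleomycin ratios of 0.55 in WT and 0.17 in *Hps1*-/- mice. *Adgre1* was below the 2-fold line in all 4 comparisons, other than BLEO-HPS1 versus PBS-HPS1 after the correction, at 1.10.

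*Adgre4* and *Adgre5* belong to the same family. *Adgre4*, expressed by nonclassical monocytes, was at 75.0 CPM in PBS-WT against 48.2 in PBS-HPS1, and 21.1 in BLEO-WT against 33.0 in BLEO-HPS1. Its log2 ratio for BLEO-WT versus PBS-WT was -1.83 (-1.91 to -1.75), opposite to that of *Adgre1*. *Adgre5*, which encodes the broadly expressed CD97, had more reads, at 576, 449, 551 and 723 CPM. The pair summed to 651, 497, 572 and 755 CPM, and 1 of the 2 was called lower, *Adgre4* for BLEO-WT versus PBS-WT, with 0 other calls. Total counts also called 1 lower for BLEO-HPS1 versus PBS-HPS1, and the GC and length correction 1 higher for BLEO-HPS1 versus BLEO-WT. For BLEO-HPS1 versus BLEO-WT *Adgre4* was at 0.64 and *Adgre5* at 0.39.

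*Mertk* encodes a receptor tyrosine kinase of the TAM family with which macrophages bind and engulf dying cells. Its gene (ENSMUSG00000014361) lies on the plus strand of chromosome 2 from 128698956 to 128802894. *Mertk* was at 173 CPM in PBS-WT against 185 in PBS-HPS1, and 183 in BLEO-WT against 62.8 in BLEO-HPS1. The first 3 libraries lay within a narrow range, and BLEO-HPS1 was far below them. In *Hps1*-/- mice bleomycin to PBS gave a log2 ratio of -1.55 (-1.60 to -1.50), a 2.94-fold lower level. In WT mice the ratio was 0.09 (0.05 to 0.12), and -0.18 with total counts. BLEO-HPS1 versus BLEO-WT gave -1.54 (-1.59 to -1.49), and PBS-HPS1 versus PBS-WT gave 0.10 (0.06 to 0.13). Of all tested genes, 19.6% were called lower for BLEO-HPS1 versus PBS-HPS1 and 10.3% for BLEO-HPS1 versus BLEO-WT.

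The fall of *Mertk* in BLEO-HPS1 was smaller after the GC and length correction but was still past 2-fold, at -1.17 against PBS-HPS1 and -1.29 against BLEO-WT. In these comparisons 8.34% and 4.33% of all tested genes were called lower after the correction. The *Mertk* transcript is among the longest of the 9, at 4302 bases with 48.1% GC. The bleomycin ratio differed between genotypes by -1.64, and by -1.33 after the correction, and this was not tested. In BLEO-HPS1 there were 78.9 C1q reads for each *Mertk* read, compared with 19.1 for BLEO-WT, while the PBS libraries had 0.916 (*Hps1*-/-) and 1.89 (WT). This read ratio is not free of GC content and length. After that correction BLEO-HPS1 versus BLEO-WT gave -0.10 to -0.18 for the C1q genes and -1.29 for *Mertk*. The genes with profiles closest to *Mertk*, by Euclidean distance of centred log2 CPM over the 4 libraries among 10200 genes, were *Mapk6*, *Wwp1* and *Osgin2*. Their BLEO-HPS1 versus BLEO-WT ratios were -1.46, -1.47 and -1.58.

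*Gas6* and *Pros1* encode the bridging ligands of MERTK, and *Axl* a receptor of the same family. *Gas6* was at 29.0 CPM in PBS-WT against 29.7 in PBS-HPS1, and 105 in BLEO-WT against 199 in BLEO-HPS1. *Pros1* was at 170, 142, 109 and 59.1 CPM. The ligands thus moved apart, with log2 ratios of bleomycin to PBS of 1.86 (1.79 to 1.93) and 2.74 (2.69 to 2.80) for *Gas6* in WT and *Hps1*-/- mice and -0.64 (-0.68 to -0.60) and -1.27 (-1.32 to -1.22) for *Pros1*. *Axl* led the list of TAM receptors and efferocytosis genes, at 855, 661, 1074 and 1073 CPM, so that the lower *Mertk* level of BLEO-HPS1 stood beside an *Axl* ratio of -0.00 (-0.02 to 0.01) for BLEO-HPS1 versus BLEO-WT. Of the 13 tested genes of the list, 0 were called for PBS-HPS1 versus PBS-WT, 4 higher and 0 lower for BLEO-WT versus PBS-WT, and 5 higher and 2 lower for BLEO-HPS1 versus PBS-HPS1. The counts for BLEO-HPS1 versus PBS-HPS1 stand beside 26.2% higher and 19.6% lower over all tested genes. The 2 lower, *Pros1* and *Cd36*, became 4 with total counts and 0 after the GC and length correction. BLEO-HPS1 versus BLEO-WT gave 1 higher, *Tyro3* at 1.11, and 1 lower, *Cd36* at -1.11, but 0 and 3 with total counts and 0 and 0 after the GC and length correction. The list summed to 1776, 1493, 2991 and 3087 CPM.

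*Ly6c2* encodes a GPI-anchored surface antigen of the Ly6C type, which is high on classical monocytes and was part of the negative gate. The gene (ENSMUSG00000022584) lies on the minus strand of chromosome 15 from 75108158 to 75111970. *Ly6c2* was at 139 CPM in PBS-WT against 62.5 in PBS-HPS1, and 63.4 in BLEO-WT against 146 in BLEO-HPS1. PBS-WT and BLEO-HPS1 were high, and the other 2 libraries were well below them. Bleomycin to PBS log2 ratios were -1.14 in WT (-1.18 to -1.09) and 1.22 in *Hps1*-/- mice (1.18 to 1.27), opposite in sign under each scaling and after the GC and length correction. With total counts the *Hps1*-/- ratio was 0.58, below 2-fold. *Hps1*-/- against WT gave -1.16 with PBS (-1.20 to -1.11) and 1.20 with bleomycin (1.15 to 1.25), and -0.91 and 1.07 with total counts. The difference of the bleomycin ratios between genotypes was 2.36, or 1.98 with total counts, and was not tested. Of the 50-base words of the longest *Ly6c2* transcript, 13.3% occurred in other transcripts, mainly of its paralog *Ly6c1*. This is a share of positions and not of reads, so that its counts are uncertain by an unknown amount.

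*Ly6c1*, which endothelial cells also express, was at 37.3 CPM in PBS-WT against 34.4 in PBS-HPS1, and 97.5 in BLEO-WT against 167 in BLEO-HPS1. It was higher with bleomycin in both genotypes, at 1.38 (1.32 to 1.45) in WT and 2.28 (2.23 to 2.34) in *Hps1*-/- mice, and so had another profile than *Ly6c2*. Genes with the profile closest to *Ly6c2* were *Fam26f*, *Pglyrp1* and *Pilrb2*, at distances of 0.242, 0.281 and 0.303. In the Ly6 family list of 6 tested genes, 0 were called higher and 2 lower for PBS-HPS1 versus PBS-WT, 1 higher and 1 lower for BLEO-WT versus PBS-WT, and 5 higher and 0 lower for BLEO-HPS1 versus PBS-HPS1. Those 5 and 0 stand beside 26.2% and 19.6% of all tested genes. In the remaining comparison, BLEO-HPS1 versus BLEO-WT, 4 were higher and 1 lower, from *Ly6i* at 2.06 to *Ly6g* at -1.11. The 4 higher became 3 with total counts and 3 after the GC and length correction. With PBS the 2 lower became 1 with total counts and 1 after the GC and length correction, and with bleomycin in WT mice the 1 lower became 2 with total counts. The list summed to 875, 591, 986 and 2076 CPM, of which *Ly6e* made up 755, 498, 770.2 and 1617.

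Other genes of classical monocytes varied in profile. *Ccr2*, the receptor with which these cells leave the marrow, was at 332 CPM in PBS-WT against 144 in PBS-HPS1, and 330.4 in BLEO-WT against 148 in BLEO-HPS1, lower in both *Hps1*-/- libraries. *Plac8* was at 298, 103, 64.2 and 244 CPM, with the same high and low libraries as *Ly6c2*. Of the 10 classical monocyte genes, 0 were called higher and 4 lower for PBS-HPS1 versus PBS-WT, 3 and 2 for BLEO-WT versus PBS-WT, and 6 and 0 for BLEO-HPS1 versus PBS-HPS1. Those 6 and 0 stand beside 26.2% and 19.6% of all tested genes. BLEO-HPS1 versus BLEO-WT gave 1 higher, *Plac8* at 1.93, and 1 lower, *Ccr2* at -1.16, with a median of -0.33, and the *Ccr2* call was lost after the GC and length correction. With total counts the 6 higher became 1. *Lyz2* led this list at 9428, 6083, 13145 and 12343 CPM, and the list summed to 12711, 8311, 26679.8 and 20706 CPM. *Cx3cr1*, the chemokine receptor gene of nonclassical monocytes and many resident macrophages, was at 116, 52.3, 152 and 137 CPM. Of the 9 nonclassical monocyte genes, 1 was called lower for PBS-HPS1 versus PBS-WT, 2 lower for BLEO-WT versus PBS-WT, 5 higher for BLEO-HPS1 versus PBS-HPS1 and 3 higher for BLEO-HPS1 versus BLEO-WT, with 0 called in the other direction each time. The higher shares over all tested genes were 26.2% for BLEO-HPS1 versus PBS-HPS1 and 6.72% for BLEO-HPS1 versus BLEO-WT. The 5 higher became 1 with total counts and 3 after the GC and length correction, and the 1 lower with PBS became 0 with total counts. In the last of these, the extremes were *Eno3* at 1.79 and *Nr4a1*, the gene with the most reads, at -0.36, and the list summed to 2774, 2308, 2972 and 3544 CPM.

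*Folr2* encodes folate receptor beta, found on a subset of resident macrophages. The gene (ENSMUSG00000032725) lies on the minus strand of chromosome 7 from 101839988 to 101857194. It had the fewest reads of the 9 genes in each library, 265 to 1981, and was at 4.44 CPM in PBS-WT against 2.68 in PBS-HPS1, and 25.3 in BLEO-WT against 26.3 in BLEO-HPS1. Both bleomycin libraries were above both PBS libraries. Bleomycin to PBS log2 ratios were 2.50 in WT (2.34 to 2.68) and 3.28 in *Hps1*-/- mice (3.11 to 3.49), and the difference of 0.78, or 0.41 with total counts and 0.29 after the GC and length correction, was not tested. BLEO-HPS1 and BLEO-WT could not be separated by counting error, with a ratio of 0.06 (-0.04 to 0.15) that was -0.08 with total counts and -0.30 after the GC and length correction. PBS-HPS1 versus PBS-WT gave -0.72 (-0.97 to -0.49). *Folr2* overlaps the antisense gene *Gm10602*, and 56.7% of its 50-base words are shared with it, so that its counts are uncertain. *Gm10602* itself had 27 to 55 reads.

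*Folr1*, which encodes folate receptor alpha, had 8 to 23 reads, at most 0.232 CPM, and was not tested. The folate carriers and enzymes were also low, with the list summing to 37.2, 31.0, 58.6 and 95.2 CPM. *Izumo1r*, which encodes folate receptor delta of T cells, was highest in mean CPM, at 13.3, 9.64, 19.2 and 43.2 CPM. In PBS-HPS1 *Fpgs* was higher, at 11.7 CPM. Beside 26.2% of all tested genes called higher for BLEO-HPS1 versus PBS-HPS1, 3 of the 4 tested genes of the list were called higher there. Of the 4, 0 were called for PBS-HPS1 versus PBS-WT, 1 higher for BLEO-WT versus PBS-WT and 1 higher for BLEO-HPS1 versus BLEO-WT, with 0 lower in each. The WT call was lost with DESeq2 size factors, with total counts and after the GC and length correction, and this correction also ended the last. The last was *Izumo1r* at 1.17, and *Slc46a1* was the smallest at 0.38. The genes with the closest profile to *Folr2* were *Abcc3*, *Lgmn* and *Mmp14*, at distances of 0.137, 0.213 and 0.292.

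*Lyve1* encodes a hyaluronan receptor of lymphatic endothelium that also marks interstitial macrophages along vessels. The gene (ENSMUSG00000030787) lies on the minus strand of chromosome 7 from 110850607 to 110863239. *Lyve1* was at 45.3 CPM in PBS-WT against 73.8 in PBS-HPS1, and 138 in BLEO-WT against 92.6 in BLEO-HPS1. It was lowest in PBS-WT and highest in BLEO-WT, an order none of the other 8 genes had. Bleomycin against PBS gave a log2 ratio of 1.60 in WT (1.55 to 1.66) and 0.33 in *Hps1*-/- mice (0.28 to 0.38), which was -0.32 with total counts and 0.71 after the GC and length correction. The difference between genotypes was -1.28 and was not tested. *Hps1*-/- against WT gave 0.71 with PBS (0.65 to 0.76) and -0.57 with bleomycin (-0.62 to -0.53), and these signs held under each scaling and the correction.

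Genes of lymphatic endothelium were counted beside *Lyve1*, and their levels differed widely. *Prox1*, the factor that defines lymphatic identity, was at 7.95 CPM in PBS-WT against 15.0 in PBS-HPS1, and 4.76 in BLEO-WT against 2.39 in BLEO-HPS1, while *Ccl21a* was at or near 0, with at most 0.0383 CPM. For PBS-HPS1 versus PBS-WT the median over the 5 tested genes was 0.91, beside 0.71 for *Lyve1*, with 1 called higher and 0 lower, or 4 higher with total counts and 0 after the GC and length correction. With bleomycin in WT mice, *Prox1* was lower, at -0.74 (-0.93 to -0.55), where *Lyve1* and *Pdpn*, *Reln* and *Flt4* of the list were higher and *Mmrn1* was at 0.05. There, 2 of the list were called higher and 0 lower, and in *Hps1*-/- mice 1 higher and 2 lower, beside 26.2% and 19.6% of all tested genes. BLEO-HPS1 versus BLEO-WT gave 0 calls, from *Flt4* at 0.83 to *Prox1* at -0.99. The list summed to 118, 221, 257 and 279 CPM and was led in mean CPM by *Flt4*, at 37.9, 71.7, 54.0 and 96.3 CPM. In BLEO-WT *Pdpn* was higher, at 101 CPM, and in PBS-WT *Mmrn1*, at 38.9 CPM. The part of lymphatic cells in the *Lyve1* levels was not tested.

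*Cd44*, the main hyaluronan receptor of leukocytes, was at 813 CPM in PBS-WT against 662 in PBS-HPS1, and 590.1 in BLEO-WT against 330.1 in BLEO-HPS1. Both bleomycin libraries were below both PBS libraries. *Cd44* led the list of hyaluronan receptors and enzymes in mean CPM, but *Stab1* was higher in BLEO-HPS1, at 578 CPM. The list summed to 936, 817, 1198 and 987 CPM. Of the 8 tested genes of this list, 1 was called higher for PBS-HPS1 versus PBS-WT, 2 for BLEO-WT versus PBS-WT, 3 for BLEO-HPS1 versus PBS-HPS1 and 1 for BLEO-HPS1 versus BLEO-WT. The 3 stand beside 26.2% of all tested genes called higher, where 19.6% were called lower. *Cd44* was called lower, 2.01-fold for BLEO-HPS1 versus PBS-HPS1, a call lost with DESeq2 size factors and after the GC and length correction, while total counts called 2 genes lower and 1 higher. The extremes for BLEO-HPS1 versus BLEO-WT were *Has1* at 2.23 and *Cd44* at -0.84. Closest in profile to *Lyve1* were *Fosb*, *Jdp2* and *Fgfr3*, at distances of 0.235, 0.270 and 0.271.

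Levels of the 9 genes were ranked per kilobase of transcript. In PBS-WT *C1qa* and *Csf1r* led at 137 each and could not be separated by counting error, followed by *C1qb* at 92.1, *Adgre1* at 77.8, *C1qc* at 69.4, *Ly6c2* at 52.0, *Mertk* at 40.1, *Lyve1* at 15.7 and *Folr2* at 3.69 CPM per kilobase. In PBS-HPS1 *Csf1r* led at 80.7, before *C1qa* at 70.4 and *Adgre1* at 53.2, and *Folr2* was last at 2.22. In BLEO-WT the C1q genes led at 1338, 1115 and 735 for *C1qa*, *C1qb* and *C1qc*, before *Csf1r* at 286 and *Adgre1* at 137, with *Folr2* last. In BLEO-HPS1 they led at 1968, 1581 and 988, before *Csf1r* at 341, and *Mertk* was last at 14.6. Other than *C1qa* and *Csf1r* in PBS-WT, counting intervals of neighbours in these orders did not overlap. The length used was that of the longest annotated transcript. The intervals cover neither this choice nor sequence shared with other genes, so that they do not settle the orders.

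Profiles over the 4 libraries were compared among the 9 genes as well. The smallest distances were those between C1q chains, from 0.103 for *C1qa* and *C1qc* to 0.285 for *C1qa* and *C1qb*. Next came *Adgre1* and *Lyve1* at 0.899 and *Adgre1* and *Csf1r* at 0.959. *Mertk* and *C1qb* were the farthest apart at 5.32. Outside the 9 genes, the mean C1q profile was closest to those of *Apoe*, *Trem2* and *Fcna*, at distances of 0.237, 0.380 and 0.511. *Apoe*, which encodes a lipid carrier that macrophages secrete, was at 1029, 548, 12175 and 13689 CPM. The closest to *Csf1r* were *Rgs10*, *C1rl* and *P2ry6*, at 0.0608, 0.0795 and 0.112, and the closest to *Adgre1* were *Arsg*, *Apobec1* and *Anxa4*, at 0.0744, 0.0936 and 0.111.

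Among other genes of interstitial and resident macrophages, *Cd163*, a haemoglobin scavenger receptor gene, was at 33.4 CPM in PBS-WT against 24.8 in PBS-HPS1, and 134 in BLEO-WT against 27.4 in BLEO-HPS1. *Mrc1*, which encodes the mannose receptor, was at 647, 621, 702 and 266 CPM, and was the only 1 of the 18 genes called lower for BLEO-HPS1 versus PBS-HPS1. For BLEO-HPS1 versus BLEO-WT the log2 ratio was -2.29 for *Cd163* (-2.36 to -2.21) and -1.40 for *Mrc1* (-1.43 to -1.38). Of the 18 genes of this list, 0 were called higher and 3 lower for PBS-HPS1 versus PBS-WT, 11 and 0 for BLEO-WT versus PBS-WT, and 15 and 1 for BLEO-HPS1 versus PBS-HPS1. Those 15 and 1 stand beside 26.2% and 19.6% of all tested genes. Between the bleomycin libraries 0 were higher and 3 lower in BLEO-HPS1, with a median of -0.07 and extremes of 0.71 for *Cd74* and -2.29 for *Cd163*, and the 3 became 1 after the GC and length correction, with a median of -0.43. The 15 higher with bleomycin in *Hps1*-/- mice became 9 with total counts and 12 after the GC and length correction, which also ended the lower call, and the 3 lower with PBS became 0 with total counts. The list, led in mean CPM by *Apoe*, summed to 9376, 5838, 28351 and 31343 CPM. In the PBS libraries *Cd74* lay above *Apoe*, at 4391 CPM in PBS-WT and 2353 in PBS-HPS1.

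Markers of other cells that a lung sort could hold were counted beside the 9 genes. Alveolar macrophage genes, with 14 tested, were lower in sum with bleomycin, where the C1q genes were higher. The summed level was 7917 CPM in PBS-WT against 6577 in PBS-HPS1, and 5763 in BLEO-WT against 3588 in BLEO-HPS1, led by *Chil3* at 3926, 3567, 3341 and 1758. Called were 0 higher and 1 lower for PBS-HPS1 versus PBS-WT, 1 and 5 for BLEO-WT versus PBS-WT, 1 and 7 for BLEO-HPS1 versus PBS-HPS1, and 0 and 3 for BLEO-HPS1 versus BLEO-WT, where *Car4* was at 0.37 and *Atp6v0d2* at -1.64. Both this list and the neutrophil list stand beside 26.2% of all tested genes higher and 19.6% lower for BLEO-HPS1 versus PBS-HPS1. With total counts the lower calls with bleomycin were 8 in WT and 11 in *Hps1*-/- mice. All 11 neutrophil genes were called lower for PBS-HPS1 versus PBS-WT, the comparison in which 1 of the 9 genes was. With total counts 10 of the 11 and 0 of the 9 were called lower there. The neutrophil genes summed to 1732, 487, 934 and 484 CPM and were led in mean CPM by *S100a9*, at 517, 109, 287 and 103 CPM. In PBS-HPS1 *Csf3r* was higher, at 152 CPM. For BLEO-WT versus PBS-WT 0 neutrophil genes were called higher and 4 lower, for BLEO-HPS1 versus PBS-HPS1 3 and 1, and for BLEO-HPS1 versus BLEO-WT 1, *Camp* at 1.10, and 5, down to *Cxcr2* at -1.74. The 4 lower became 9 with total counts, the 3 and 1 became 3 and 3, and the 1 and 5 became 0 and 5, or 0 and 7 after the GC and length correction.

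Dendritic cell genes, 9 of them tested, summed to 375, 366, 406 and 578 CPM and were led by *Ccr7*, at 170, 215, 270.4 and 411. They had 0 calls for PBS-HPS1 versus PBS-WT, 3 lower for BLEO-WT versus PBS-WT, 2 higher and 1 lower for BLEO-HPS1 versus PBS-HPS1, and 0 for BLEO-HPS1 versus BLEO-WT, from *Batf3* at 0.71 to *Zbtb46* at -0.14. All lists of this paragraph stand beside 26.2% of all tested genes higher and 19.6% lower for BLEO-HPS1 versus PBS-HPS1. The 2 higher and 1 lower became 0 and 3 with total counts and 2 and 0 after the GC and length correction. The 9 blood endothelium genes summed to 916, 856, 823 and 1171 CPM. They were led in mean CPM by *Pecam1*, at 182, 172, 176 and 203, with *Cldn5* higher in BLEO-HPS1, at 210. Their calls were 0, then 1 higher and 1 lower, 2 higher, and 0 in the same order of comparisons, with *Cldn5* at 0.88 and *Kdr* at -0.15 for BLEO-HPS1 versus BLEO-WT. With total counts the calls with bleomycin were 1 higher and 3 lower in WT and 1 and 2 in *Hps1*-/- mice. The ILC2 genes, with 9 tested, had 0 calls, 1 lower, 2 higher and 3 lower, and 2 higher, with *Thy1* at 1.30 and *Il7r* at -0.96 in the last. After the GC and length correction the ILC2 calls were 0, 0, 2 higher, and 0. With total counts they were 1 higher and 5 lower with bleomycin in *Hps1*-/- mice. For BLEO-HPS1 versus BLEO-WT total counts gave 1 higher and 2 lower. Genes of the negative sort gate were present in all libraries and summed to 589, 372, 648 and 964 CPM. *Itgam*, which encodes CD11b, led in mean CPM, at 99.8, 61.5, 236 and 151, but was highest in BLEO-WT alone. The highest gate genes elsewhere were *Ly6c2* at 139 in PBS-WT, *Cd3g* at 80.4 in PBS-HPS1 and *Cd3d* at 195 in BLEO-HPS1. Of these 7 genes, 2 were called lower for PBS-HPS1 versus PBS-WT, 2 higher and 1 lower for BLEO-WT versus PBS-WT, 5 higher for BLEO-HPS1 versus PBS-HPS1, and 2 higher and 1 lower for BLEO-HPS1 versus BLEO-WT, from *Cd3d* at 1.24 to *Ly6g* at -1.11. The list includes *Ly6c2*, which made 1 of the calls in each comparison. Here too the 5 higher became 1 with total counts. The part of these cells in the levels of the 9 genes was not tested.

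The medians of these lists can be set beside those of the 9 genes. With PBS, where the median of *Hps1*-/- to WT was -0.76 for the 9 genes and -0.19 for all tested genes, it was -0.71 for interstitial and resident macrophages, -0.81 for classical and -0.59 for nonclassical monocytes. It was -0.35 for alveolar macrophages, -2.25 for neutrophils, -0.47 for dendritic cells, 0.91 for lymphatic endothelium and -0.70 for the negative gate. The Ly6 family had -0.53, the adhesion GPCRs -0.50, the folate genes -0.36 and the hyaluronan genes 0.08. Medians that changed sign with total counts were -0.09 to 0.15 for C1q partners, -0.23 to 0.01 for CSF1R regulators, -0.24 to 0.01 for efferocytosis, -0.12 to 0.13 for blood endothelium and -0.05 to 0.20 for ILC2s.

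With bleomycin in WT mice, where the 9 genes had a median of 1.60 and all tested genes 0.09, interstitial macrophage genes had 1.26. The medians were 0.64 for C1q partners, 0.33 for efferocytosis, 0.69 for folate, 0.50 for hyaluronan and 0.51 for lymphatic endothelium. They were -0.59 for nonclassical monocytes, -0.79 for alveolar macrophages, -0.85 for neutrophils, -0.25 for dendritic cells, -0.95 for the adhesion GPCRs, -0.08 for blood endothelium and -0.26 for the negative gate. Sign changes were 0.24 to -0.02 for CSF1R regulators with total counts and 0.01 to -0.25 for the Ly6 family with total counts, or -0.00 with DESeq2 size factors and -0.15 with the GC and length correction. With that correction alone the changes were -0.18 to 0.32 for classical monocytes and -0.27 to 0.28 for ILC2s. No other list reached the median of the 9 genes.

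With bleomycin in *Hps1*-/- mice, where the 9 genes had 2.08 and all tested genes 0.25, the medians were 1.81 for interstitial macrophages, 1.13 (0.49 with total counts) for classical and 1.28 (0.63) for nonclassical monocytes and 1.22 (0.58) for the negative gate, which is the value of *Ly6c2* itself. C1q partners had 1.63, folate genes 1.83, the Ly6 family 1.75 and alveolar macrophages -0.99, and with total counts these were 0.99, 1.19, 1.11 and -1.64, while interstitial macrophages had 1.17 and the 9 genes 1.44. Total counts changed the sign from 0.31 to -0.34 for CSF1R regulators, 0.44 to -0.20 for hyaluronan, 0.07 to -0.57 for the adhesion GPCRs and 0.42 to -0.22 for neutrophils. They also did so from 0.33 to -0.30 for dendritic cells, 0.10 to -0.54 for lymphatic and 0.24 to -0.41 for blood endothelium. With the GC and length correction it went from -0.08 to 0.65 for efferocytosis and from -0.54 to 0.38 for ILC2s.

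Between the bleomycin libraries, where the 9 genes had 0.25, or -0.18 after the GC and length correction, and all tested genes -0.04, medians were 0.89 for nonclassical monocytes, -0.70 for alveolar macrophages and -0.84 for neutrophils. They were 0.46 for dendritic cells, 0.37 for blood endothelium, -0.63 for ILC2s (-0.03 after the correction), 0.82 for the negative gate, 1.17 for the Ly6 family and 0.52 for the adhesion GPCRs. The folate genes had 0.40, or -0.00 after the correction, the hyaluronan genes -0.23, or 0.07, and lymphatic endothelium -0.14, or 0.31. Efferocytosis genes had -0.00, or 0.06 with DESeq2 size factors.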

How the data were processed

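RNA of ILC2s sorted from mouse lungs was sequenced in 4 groups with 1 library each. The deposited table holds counts, as whole numbers of reads without normalization, covering 49315 genes, 37499 of them with reads. The aligner, the counter, the genome build, the annotation and the use of strand are not given in the sources used here. Of the identifiers, 49056 were found in GENCODE M21 (GRCm38), which gave positions, the longest transcript, its GC content and shared words of 50 bases.

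Library sizes were scaled with TMM factors (edgeR 4.0.16, R 4.3.3) of 1.08 and 1.27 for PBS-WT and PBS-HPS1, and of 0.895 and 0.816 for BLEO-WT and BLEO-HPS1. A prior count of 2 was added before log2 CPM was taken. Genes that reached a CPM of 1 in any library were tested against a 2-fold threshold, and no p-value was computed. The alternatives were DESeq2 size factors (version 1.42.0), total counts, prior counts of 0.5 and 10, all genes unfiltered, a filter of 10 reads in each library, a log2 threshold of 2, and a loess correction (span 0.3) of the ratios for GC content and length. The ratio and background steps were also run on simulated counts with counting noise only. That run cannot show how these steps act on amplification, GC or length effects.

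All 9 genes are named. From each of 17 other gene lists the text names the most abundant gene (highest mean CPM) and the genes with the largest and smallest ratio for BLEO-HPS1 versus BLEO-WT. It also names partner genes of the 9 and the 3 genes closest in profile among those that reached a CPM of 10 in any library. Some genes were chosen after their values were seen (*Mrc1*, *Cx3cr1*, *Pdpn*, *Reln*, *Mmrn1*, *Klrg1*, *Rora*, *Icos*, *Spi1*, *Stab1*, *Tyrobp*, *Fpgs*, *Csf3r*, *Cd3g*). *Itgam* and *Ccl21a* each had 2 entries, and the one with more reads was used. *Bcl11b* and *Siglecf* were not analysed here. The genes and lists were chosen with earlier results of these data known. Promoter windows are RefSeq's, on GRCm38.p6. Results on 1 gene and a motif are not reported here.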

Additional observations from a re-analysis of the deposited data

Results flagged for a closer look

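For 2 of the 9 genes the bleomycin ratio had opposite signs in WT and *Hps1*-/- mice, with counting intervals that left out 0 in both. For *Ly6c2* this log2 ratio was -1.14 in WT and 1.22 in *Hps1*-/- mice, a difference of 2.36 that ranged from 1.98 with total counts to 2.39 with DESeq2 size factors. For *Mertk* the ratios were 0.09 and -1.55, a difference of -1.64. With bleomycin in *Hps1*-/- mice 26.2% of all tested genes were called higher and 19.6% lower. The WT ratio of *Mertk* was small and turned to -0.18 with total counts, so that the opposite signs of this gene did not hold there. *Lyve1* had opposite signs with total counts only, 1.34 in WT and -0.32 in *Hps1*-/- mice. With 1 library per group these differences between genotypes were not tested.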

How the results depend on the processing

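For PBS-HPS1 versus PBS-WT the count of changed genes among the 9 was 1, and it was 0 with total counts and 0 with a log2 ratio of 2. The count for BLEO-WT versus PBS-WT was 7, and 4 with a log2 ratio of 2. For BLEO-HPS1 versus BLEO-WT it was 2, and 0 with a log2 ratio of 2. Under a stricter threshold fewer genes can pass by construction. Total counts shift all ratios of a comparison by nearly the same amount by construction, and *Ly6c2* went from -1.16 to -0.91. Every other count, including the 7 for BLEO-HPS1 versus PBS-HPS1, was within 1.5 times its value under each alternative. No ratio or difference that was at least 1 in size changed sign under any alternative. Of the 45 ratios and differences of the 9 genes, the prior counts of 0.5 and 10 moved none beyond its counting interval, DESeq2 size factors moved 13, the GC and length correction 37 and total counts 45. Leaving out a library was not possible with 1 library per group. No paired analysis was possible because each group had 1 library. Depth limited *Folr2* most, with 265 reads in PBS-HPS1, and mouse-to-mouse spread is unknown.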
